A study of Mus musculus with 3 samples.

Results

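Bone marrow monocytes were taken as the 282 cells of the bone marrow library that met a rule on transcript counts, of 1840 bone marrow cells that passed a filter on quality (15.3%, exact 95% binomial interval 13.7 to 17.1) and of 9002 such cells in the whole series. The rule asked for at least 2 unique molecular identifiers (UMIs, each standing for 1 captured transcript) of Csf1r, which encodes the receptor for the growth factor of the monocyte and macrophage lineage, and for at least 3 UMIs of Ccr2, Ms4a4c and F13a1 together. It also asked that S100a8 and S100a9, the most abundant neutrophil transcripts, made up less than 5% of a cell's UMIs, and that Elane, Mpo, Prtn3 and Ctsg, which encode proteins of the azurophil granule, made up less than 1%. The cells were thus selected on the UMIs of these 10 genes, whose levels are given below as a description only.

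The study followed the immune response in a mouse model of heterotopic ossification (HO), the formation of bone in soft tissue after trauma. Unsorted cells of bone marrow, blood and the injured tendon (the HO site) were profiled by droplet single-cell RNA-Seq on day 3 after burn/tenotomy, in which a burn on the back is combined with transection of the Achilles tendon. There was 1 library per site, all from C57BL/6J males aged 10 weeks, and no library from uninjured animals was used here. Bone marrow was flushed from both femurs and red cells were lysed, blood was spun on a Ficoll gradient before red cell lysis, and the HO site was digested with enzymes at 37C, so that site, preparation, library and animal cannot be told apart. No test between sites was possible, and every interval below covers counting error only. Applied to the other libraries, the same rule chose 315 of 2184 blood cells (14.4%) and 2018 of 4978 HO site cells (40.5%), and these served as the comparison.

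Monocytes arise in the bone marrow from dividing progenitors that pass through a stage at which granule protease genes are transcribed. Classical monocytes carry Ly6C on their surface and depend on the chemokine receptor CCR2 to leave the marrow for the blood, from where they enter injured tissue and can become macrophages. Part of them convert in the blood to nonclassical monocytes, which patrol the vessel wall and depend on the transcription factor Nr4a1.

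The bone marrow monocytes were deeply sequenced, with a median of 23231 UMIs per cell (lowest 7519, highest 82762) and 4298 detected genes, against 18841 UMIs in blood and 12875 at the HO site. All 282 cells together held 8131309 UMIs, the blood cells 6019833 and the HO site cells 29426242. Because the rule asks for a number of Csf1r UMIs it also selects on depth: when the rule was applied to cells thinned to 5000 UMIs, it chose 4.48% of the bone marrow cells of that depth or more. Of the 282 cells, 62 had exactly 2 Csf1r UMIs, and 30 further cells that met the other limits had exactly 1. There were 23 cells with 0.5 to 1% azurophil UMIs and 18 otherwise eligible cells with 1 to 1.5%, while 8 cells had 2.5 to 5% S100a8 and S100a9 UMIs and 6 otherwise eligible cells had 5 to 7.5%. No bone marrow monocyte was among the 27 cells of its library with the highest doublet scores, while 5 of the 315 blood cells and 100 of the 2018 HO site cells were among the 38 and 198 of theirs, and without such cells 2005 genes were lower than at the HO site in place of the 2214 given below. No bone marrow monocyte shared a barcode with the other libraries (2 bone marrow barcodes were found in blood and 1 at the HO site).

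Of the 5 given marker genes the rule used 4, whose levels are a description and do not bear on the label. Over the 282 cells, Csf1r had a median of 4 UMIs per cell (2 to 18), and Ccr2, the receptor for monocyte-attracting chemokines, a median of 31 (0 to 96). F13a1, the A subunit of coagulation factor XIII and a transcript typical of classical monocytes, had a median of 25 (0 to 124), and Ms4a4c, a membrane protein of the Ms4a family, one of 8.5 (0 to 51). Ms4a6c, the marker that the rule did not use and a member of the same family, was found in all 282 cells with a median of 35 UMIs (3 to 154). Ms4a4c and Ms4a6c both lie on chromosome 19 (11404770 to 11427246 and 11469366 to 11482192, plus strand, GENCODE M21 on GRCm38), and Ccr2 lies on chromosome 9 (124101950 to 124113557, plus strand). Ly6c2, the gene for Ly6C, was found in 279 of the cells and lies on chromosome 15 (75108158 to 75111970, minus strand).

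Several defining transcripts of other cell types were at 0, while other members of the same lists were not. At 0 were 5 of 7 B cell, 4 of 8 T and NK cell, 2 of 10 erythroid, 3 of 8 basophil and mast cell and 6 of 9 stromal genes. Cd79a, Ms4a1, Ebf1 and Pax5 of B cells, Cd3e, Cd3g, Gzma and Klrb1c of T and NK cells, Alas2 of erythroid cells, Ms4a2, Fcer1a and Cpa3 of basophils and mast cells, and Col1a1, Col1a2, Col3a1 and Cxcl12 of stroma had no UMI in any of the 282 cells, which allows at most 0.369 counts per 1000000 UMIs (CPM) for each (3 counts over the group). The summed level of the 7 B cell genes was 13.2 CPM in bone marrow monocytes, 28.1 in the blood cells and 20.6 in the HO site cells, with Cd79b the most abundant in bone marrow (12.9). The 15 neutrophil genes summed to 3974 CPM in bone marrow monocytes, 3002 in blood and 784 at the HO site. S100a8 was the most abundant of them at each site (2421, 1765 and 305). The 10 erythroid genes summed to 21.0, 6.15 and 98.4 CPM, with the transferrin receptor gene Tfrc the most abundant in bone marrow (7.26). In bone marrow monocytes the 8 T and NK cell genes summed to 14.0 CPM (Nkg7 13.5), the 8 basophil and mast cell genes to 4.18 (Mcpt8 3.32) and the 9 stromal genes to 13.9 (Pecam1 13.4). The part of such transcripts in the results was not tested.

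Neutrophil transcripts in bone marrow monocytes were compared with those in cells that should lack them, namely 60 of the 68 B-lineage cells of the same library, those with under 1% azurophil UMIs. Of these 60, 56 were deep enough to be thinned to 3000 UMIs. Among the thinned cells S100a8, which the rule limits in the monocytes, was found in 67.9%, against 67.7% of bone marrow monocytes. Camp, which encodes the antimicrobial peptide cathelicidin, was found in 21.4% against 12.4%. The median depths before thinning were 5622 and 23231 UMIs. Over all 15 neutrophil genes the thinned median was 4 UMIs per monocyte and 3 per B-lineage cell, the upper quartile 10 and 4.25, and the pooled level 3974 and 824 CPM. At equal depth Camp was thus found in no larger a share of the monocytes than of the B-lineage cells. The B-lineage cells were shallower before thinning, so that the shares do not settle whether its UMIs were free RNA. Its ratios to the other sites are not read. Nor are those of Ngp, whose level is set against that of the B-lineage cells further below. Monocyte transcripts that the rule did not use were far from their shares in the B-lineage cells. Ms4a6c was found in 1.79% of the thinned B-lineage cells and 96.1% of the thinned monocytes, Ly6c2 in 8.93% and 92.9%, and the lysozyme gene Lyz2 in 16.1% and 98.9%.

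The bone marrow monocytes held more transcripts of the cell cycle than the same rule's cells at the other sites. Among 96 genes of S phase and of G2 and mitosis, counted in cells thinned to 3000 UMIs, bone marrow monocytes held a median of 19.5 UMIs per cell (lowest 1, highest 109), blood cells 5 (0 to 64) and HO site cells 4 (0 to 65). A limit of 3 such UMIs separated little, being met by 96.5% of bone marrow monocytes, 87.3% of blood cells and 74.3% of HO site cells. With a limit of 20, chosen after the distribution had been seen, 141 of 282 bone marrow monocytes lay at or above it (50%, interval 44.0 to 56.0), against 3 of 315 blood cells (0.952%, 0.197 to 2.76) and 69 of 2007 HO site cells (3.44%, 2.68 to 4.33).

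**Figure D1:**
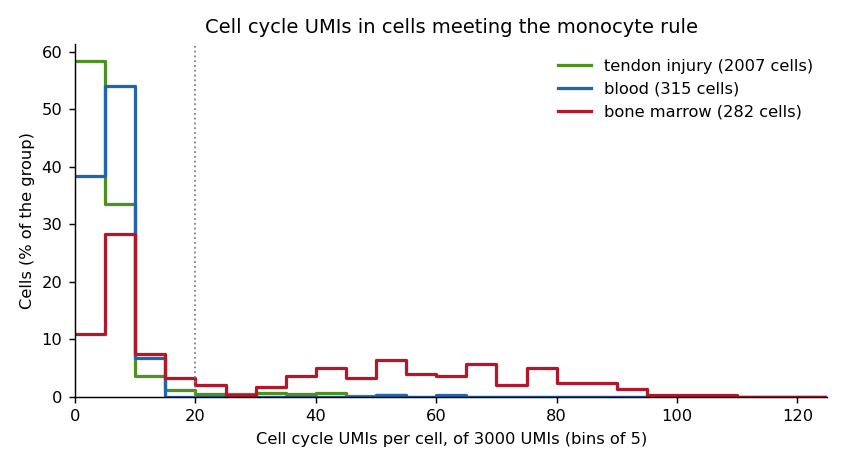
Percent of cells (vertical axis) by the number of cell cycle UMIs among 3000 UMIs of a cell (horizontal axis, bins of 5), for cells of the same rule in bone marrow (282), blood (315) and the HO site (2007), with a dotted line at 20. Blood and HO site cells pile up near 0, while bone marrow monocytes show that peak and a second broad one far above the dotted line.

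The share above 20 was a range and not a cell type, and 15 bone marrow monocytes lay between 15 and 24. Of the 141 cells above it, 122 held more UMIs of G2 and mitosis than of S phase, with medians of 48 and 11 UMIs of 3000. These cells were also deeper than the other 141, with a median of 36451 against 18499 UMIs and 5404 against 3704 genes, before thinning. Other bone marrow cells had high shares as well, namely 98.6% of 72 azurophil-rich cells, 34.7% of 1170 cells with 5% or more S100a8 and S100a9 UMIs and 35.9% of 64 B-lineage cells, azurophil-rich ones included, against 1.13% of 355 blood B-lineage cells.

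Levels per gene were computed as CPM over all cells of a group, and a gene was counted as higher or lower where the ratio of 2 groups was at least 2-fold and its counting interval lay off no difference. Against blood, 979 of 9163 genes were higher in bone marrow monocytes (10.7%) and 492 lower (5.37%). Against the HO site, 1813 of 11118 were higher (16.3%) and 2214 lower (19.9%). The median log2 ratio of all genes was 0.15 against blood and 0.14 against the HO site.

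Of the S phase genes, 39 of 43 were higher than in blood and none lower (median log2 ratio 3.48), and of the G2 and mitosis genes 52 of 52 (median 4.21). Against the HO site the counts were 39 of 44 and 50 of 52, again with none lower, and the medians 2.23 and 3.24. Mki67, which encodes the proliferation marker Ki-67, stood at 646 CPM in bone marrow (interval 629 to 664), 21.6 in blood (18.0 to 25.6) and 56.3 at the HO site (53.7 to 59.1). Top2a, the topoisomerase that untangles chromosomes before mitosis, stood at 607, 22.6 and 47.9, and Ccnb2, a B-type cyclin of mitosis, at 177, 13.5 and 14.2. Cdk1, the kinase partner of those cyclins, stood at 144, 5.15 and 19.7. For each of these genes bone marrow was the highest of the sites, and the intervals of bone marrow did not meet those of the others.

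Genes of S phase followed with smaller ratios for some members. Rrm2, a subunit of the enzyme that makes deoxyribonucleotides, was at 135 CPM in bone marrow monocytes, 3.49 in blood and 12.5 at the HO site. Pcna, the sliding clamp of DNA replication, was at 100.4, 31.9 and 68.7, and its ratio to the HO site was under 2-fold (log2 0.55, 0.43 to 0.67). Ccne2, an E-type cyclin, had the largest ratio of any gene against blood under the rule for named genes, with 31.4 CPM against 0.166, the latter resting on 1 UMI.

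The promoters of Mki67, Ccnb2 and Cdk1 are shown because 52 of 52 genes of their list were higher than in blood. Each window runs from 250 bases before to 50 bases after a transcription start of RefSeq on GRCm38.p6, 5′ to 3′ on the gene's strand. Capitals mark 2 motifs on either strand: the letters TTTGAA of the cell cycle homology region (CHR), and CCAAT (or ATTGG, its reverse complement). The motifs were chosen after the values had been seen.
Mki67, chr7:135716330-135716629, minus strand: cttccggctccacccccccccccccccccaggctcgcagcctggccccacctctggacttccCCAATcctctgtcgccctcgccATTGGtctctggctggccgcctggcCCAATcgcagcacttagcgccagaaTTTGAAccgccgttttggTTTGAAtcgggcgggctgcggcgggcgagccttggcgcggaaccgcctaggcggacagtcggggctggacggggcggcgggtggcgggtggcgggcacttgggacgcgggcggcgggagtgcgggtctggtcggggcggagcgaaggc
Ccnb2, chr9:70421505-70421804, minus strand: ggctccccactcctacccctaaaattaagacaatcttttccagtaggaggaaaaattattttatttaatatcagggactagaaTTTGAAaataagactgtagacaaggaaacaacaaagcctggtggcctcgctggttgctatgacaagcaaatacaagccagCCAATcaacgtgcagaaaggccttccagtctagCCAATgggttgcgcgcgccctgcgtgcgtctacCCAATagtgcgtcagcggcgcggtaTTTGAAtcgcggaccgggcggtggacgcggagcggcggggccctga
Cdk1, chr10:69352863-69353162, minus strand: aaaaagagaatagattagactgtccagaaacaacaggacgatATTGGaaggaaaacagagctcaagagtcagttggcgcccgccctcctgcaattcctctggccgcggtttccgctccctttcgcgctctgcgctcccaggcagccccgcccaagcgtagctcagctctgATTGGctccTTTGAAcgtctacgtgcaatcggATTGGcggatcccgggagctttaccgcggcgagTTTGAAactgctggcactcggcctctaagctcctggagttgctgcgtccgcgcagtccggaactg
Of 51 such windows of the 46 list genes of G2 and mitosis that matched, 66.7% held the CHR letters, 74.5% CCAAT and 52.9% both. Among all 32851 windows of 27025 genes the shares were 17.9%, 37.4% and 6.95%. The 36 windows of 32 S phase genes held CCAAT in 66.7% and the CHR letters in 16.7%. CCAAT was also in 87.5% of the 8 windows of the MHC class II list and in 75% of the 8 of the erythroid list, so that CCAAT alone does not set the cell cycle lists apart. A match is a description of the letters and not a site of binding.

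Granule protease transcripts were present at a low level in many bone marrow monocytes, within the limit the rule set on their sum. Prtn3, the gene of proteinase 3, stood at 1299 CPM in bone marrow (1274 to 1324), 141 in blood and 32.7 at the HO site. Elane, the gene of neutrophil elastase, stood at 333, 4.49 and 2.11, and Ctsg, the gene of cathepsin G, at 293, 2.82 and 10.7. The same limit held at every site, and the rule used these genes, so that the ratios are given as values only. Of the 10 genes of the azurophil list, 6 were higher and 1 lower than in blood, the lower one being Srgn, which encodes the proteoglycan of the granule core (343 against 795). Ms4a3, a gene of granulocyte and monocyte progenitors that the rule did not use, stood at 39.6 CPM in bone marrow, 0.332 in blood and 2.55 at the HO site, against 23.5 in the 60 B-lineage cells.

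The cells varied in these transcripts. Of the 60 B-lineage cells, 56 were deep enough to be thinned to 3000 UMIs. At that depth Prtn3 was found in 63.5% of bone marrow monocytes and in 3.57% of those 56 cells, and Elane in 24.5% and 1.79%. Those 60 were themselves chosen for few azurophil UMIs, which keeps their shares low. Over the 64 of all 68 B-lineage cells that could be thinned the shares were 15.6% and 14.1%, and Prtn3 stood at 6656 CPM over the 68. In 27 bone marrow monocytes all 4 protease genes of the rule were at 0. For Mpo, the gene of myeloperoxidase, the pooled level of 136 CPM equalled that of the 60 cells, where 2 cells held all 75 UMIs, and no order is read from it. With free RNA subtracted at the level of all 68 B-lineage cells, the log2 ratio to blood turned from 6.22 to at most -3.60 for Elane and from 7.35 to at most -1.17 for Mpo. At the level of the 60 cells, a choice made after the data had been seen, it was 6.10 for Elane and again at most -1.17 for Mpo, so that the ratio of Elane depended on which B-lineage cells gave the background.

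Lists of monocyte genes, which include genes of the rule, were compared as a description. Of 15 monocyte genes 1 was higher and 3 lower than in blood (median log2 ratio -0.49), Csf1r of the rule being among the lower ones. Of 10 classical monocyte genes 1 was higher and 1 lower (median -0.10). Among all genes 10.7% were higher and 5.37% lower, so that neither the higher counts nor the 1 lower classical gene set these lists apart. Ly6c2 was higher, with 2165 CPM in bone marrow (2133 to 2197), 890 in blood (866 to 914) and 95.3 at the HO site (91.8 to 98.8), although reads of its near-identical neighbour Ly6c1 may be counted with it. Ccr2 stood at 1135, 1017 and 474 and Ms4a6c at 1386, 1238 and 851, with differences between bone marrow and blood of log2 0.16 for both. Ly6c2 thus had the order bone marrow, blood, HO site, with a far larger step to the HO site than to blood. Ccr2 was lower at the HO site, while its small ratio to blood turned to log2 -0.09 without the azurophil limit of the rule and to -0.13 against blood cells with few nonclassical UMIs.

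The Ly6c2 promoter is shown because this gene had the largest ratio of the monocyte list in favour of bone marrow over the HO site (log2 4.51, 4.45 to 4.56). Capitals mark GAGGAA, the core letters bound by PU.1, the transcription factor of the myeloid lineage.
Ly6c2, chr15:75111922-75112221, minus strand: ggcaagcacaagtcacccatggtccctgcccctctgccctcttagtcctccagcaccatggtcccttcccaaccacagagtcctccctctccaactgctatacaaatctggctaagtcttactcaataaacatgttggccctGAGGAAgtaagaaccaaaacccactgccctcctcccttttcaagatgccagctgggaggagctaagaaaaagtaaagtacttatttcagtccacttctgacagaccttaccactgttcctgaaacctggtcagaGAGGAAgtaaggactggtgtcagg
These letters, or their reverse complement, were in 64.3% of the 14 windows of the 12 monocyte list genes that matched, and in 28.3% of all windows. Other lists had like shares, with 62.5% for the phagocyte, 60% for the neutrophil, 55.6% for the T and NK cell and 54.5% for the azurophil list, so that the letters do not set the monocyte list apart.

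Cd14 and Ctss were the genes of the monocyte list outside the rule that were lower than in blood. Cd14, the co-receptor for lipopolysaccharide, stood at 14.3 CPM in bone marrow (11.8 to 17.1), 107 in blood (98.7 to 115) and 736 at the HO site (726 to 746). Ctss, the lysosomal protease cathepsin S, stood at 865, 1741 and 1793. Csf1r, on which the cells were chosen, stood at 168, 371 and 451. Fcgr1, the high-affinity receptor for IgG, stood at 61.6, 109 and 265, and its difference from blood was under 2-fold (log2 -0.82, -0.99 to -0.65). All 4 genes had their lowest level in bone marrow. For bone marrow monocytes with under 20 cell cycle UMIs, Cd14 was the only one of the 15 still lower than in blood. Among all genes 2.95% were lower in that comparison.

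**Figure D2:**
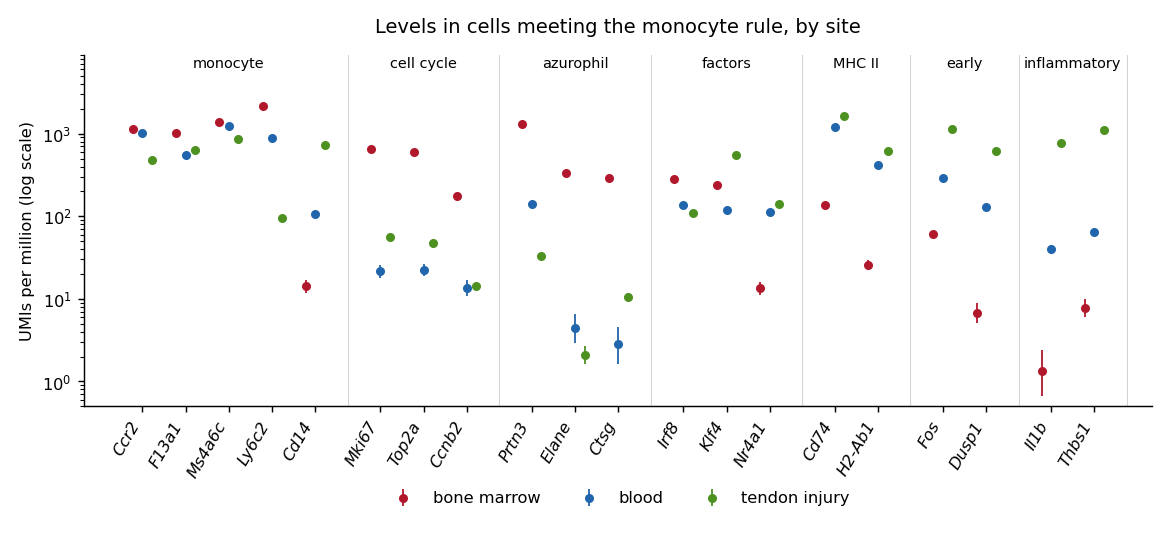
Pooled level of single genes in UMIs per 1000000 (CPM, log axis) for cells of the same rule in bone marrow, blood and the HO site, with exact 95% Poisson intervals, ordered by role. Bone marrow is highest for Mki67, Top2a and Ccnb2 and for Prtn3, Elane and Ctsg, and lowest for Cd14, Nr4a1, Cd74, H2-Ab1, Fos, Dusp1, Il1b and Thbs1.

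Transcription factors of the lineage differed from blood in both directions. Irf8, which directs progenitors toward monocytes, stood at 282 CPM in bone marrow (271 to 294), 136 in blood (127 to 146) and 108 at the HO site. With the rule applied at 5000 UMIs per cell, its log2 ratio to blood was 0.66, under 2-fold. Klf4, which acts in the making of classical monocytes, stood at 242, 121 and 551, so that bone marrow lay between the other sites. Nr4a1, the factor of nonclassical monocytes, stood at 13.4, 114 and 141. Of 14 such factors, 2 were higher and 2 lower than in blood, against 10.7% higher and 5.37% lower among all genes. Those higher were Irf8 and Klf4. With bone marrow monocytes under 20 cell cycle UMIs none of 14 was higher, but only 0.625% of all genes were. Of the same 14, 2 were higher and 5 lower than at the HO site. Spi1, which encodes PU.1, differed by less than 2-fold from both (429, 557 and 356). Myb, a factor of dividing progenitors added to the named genes after its value had been seen, stood at 16.0 CPM in bone marrow, 0 in blood and 0.238 at the HO site.

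Genes of nonclassical monocytes were lower in bone marrow than in blood in 11 of 13 cases and higher in none (median log2 ratio -2.75). Ace, which encodes angiotensin-converting enzyme, stood at 5.04 CPM in bone marrow, 76.7 in blood and 3.57 at the HO site. The fatty acid binding protein gene Fabp4 stood at 0.369, 38.7 and 111. Treml4, a receptor of the TREM family, was lower than in blood by a log2 ratio of -2.75 (-3.17 to -2.35). Blood was thus the highest site for Ace, and the log2 ratio of Treml4 to the HO site was 0.02 (-0.41 to 0.44). An exception was Spn, the sialoglycoprotein CD43, at 79.6 in bone marrow, 65.1 in blood and 3.64 at the HO site.

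Genes of entry and exit were mixed. S1pr4, a receptor for sphingosine 1-phosphate, was the only one of 14 homing genes that was higher than in blood (25.7 CPM against 9.97), while Itgal and Cd44 were among the lower ones. Itgal, the alpha chain of the integrin LFA-1, stood at 78.1 in bone marrow, 232 in blood and 24.1 at the HO site. Cxcr4, the receptor that holds leukocytes in the marrow, stood at 103, 55.6 and 173, its difference from blood being under 2-fold (log2 0.89, 0.70 to 1.07) and turning to -0.58 for the bone marrow monocytes with under 20 cell cycle UMIs. In all, 3 of 14 homing genes were lower than in blood, while among all genes 10.7% were higher and 5.37% lower. Against the HO site 7 of 15 homing genes were higher and 4 lower, with 16.3% and 19.9% among all genes. The counts of 1 higher than in blood and 4 lower than at the HO site thus do not set the list apart.

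MHC class II genes, whose products present antigen to T cells, were low in bone marrow, with 5 of 8 lower than in blood and none higher (median log2 ratio -2.72). Cd74, the invariant chain, stood at 136 CPM in bone marrow (128 to 144), 1216 in blood (1188 to 1244) and 1655 at the HO site (1641 to 1670.2). H2-Ab1, a beta chain, stood at 25.9, 417 and 625. Cd74 was found in 85 of 282 bone marrow monocytes, with at most 219 UMIs. At 3000 UMIs per cell it was found in 11.0% of bone marrow monocytes, 30.8% of blood cells and 41.7% of HO site cells, while 53.2%, 41.3% and 41.7% of the cells had no UMI of the whole list.

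Interferon-stimulated genes, induced by type I and type II interferon, were lower than in blood in 14 of 29 cases and higher in 1 (median log2 ratio -0.98), and against the HO site 9 of 30 were lower and 1 higher. Ifi27l2a, the one with the most UMIs, stood at 664, 1313 and 764 CPM in bone marrow, blood and the HO site, and Isg15, a ubiquitin-like protein, at 35.7, 87.7 and 182. Irf7, the factor that amplifies the interferon response, stood at 41.3, 86.0 and 67.4. Bone marrow had the lowest level of these 3, although the step of Ifi27l2a was under 2-fold. With bone marrow monocytes under 20 cell cycle UMIs none of 28 genes was higher or lower than in blood (median -0.01). In that comparison 0.625% of all genes were higher and 2.95% lower, so that this count does not set the list apart.

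Inflammatory genes separated bone marrow monocytes from the HO site cells more than from the blood cells. All 26 were lower than at the HO site (median log2 ratio -6.28), while 6 of 13 were lower and 2 higher than in blood (median -0.71). Cxcl2, a chemokine that attracts neutrophils, had no UMI in any bone marrow monocyte, 0.166 CPM in blood and 4873 at the HO site, a log2 ratio to the HO site of at most -13.69 at the floor of 3 counts. Il1b, the gene of interleukin-1 beta, stood at 1.35 (0.675 to 2.42), 39.9 (35.0 to 45.2) and 772 (762 to 782), and Thbs1, the gene of thrombospondin-1, at 7.75, 65.3 and 1118. In all, 10 of the 26 genes had no UMI in bone marrow monocytes, among them Il1a, Cxcl1, Cxcl2, Cxcl3, Ccl7, Il6, Ptgs2, Irg1 and Vegfa. Spp1, the gene of osteopontin, and Ccl3, a chemokine, were the exceptions that were higher than in blood (14.1 against 4.98 and 10.1 against 4.82), both far under the HO site (1733 and 121).

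Immediate early genes, which are transcribed within minutes of a stimulus and also during tissue dissociation, were in part lower in bone marrow. Of these genes 10 of 14 were lower than in blood (median log2 ratio -1.54) and 13 of 16 lower than at the HO site (median -3.81), with none higher. Fos, a subunit of the factor AP-1, stood at 60.3 CPM in bone marrow (55.0 to 65.8), 288 in blood (275 to 302) and 1143 at the HO site (1131 to 1156). Dusp1, a phosphatase that ends MAP kinase signals, stood at 6.76, 130 and 624. Klf2, the member with the most UMIs in bone marrow and blood, had its highest level in blood, at 172, 754 and 222, and was not called against the HO site. The libraries were prepared in different ways, as described above, and the part of preparation in these values was not tested.

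Glycolysis genes differed little. Of 16 genes 1 was higher than in blood, Pgam1 (405 against 200.3 CPM), and of 17 none was higher and 2 were lower than at the HO site, Pfkfb3 and the glucose transporter gene Slc2a1. Gapdh stood at 1672, 1142 and 1323. The share higher than in blood was near the background of 10.7% for all genes.

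Genes of tissue macrophages were lower than at the HO site in 16 of 16 cases (median log2 ratio -5.60) and lower than in blood in 8 of 10. In the narrower comparison described below, of bone marrow monocytes with few cell cycle UMIs against blood cells with few nonclassical UMIs, none of 5 was lower and C1qb was higher (median 0.20). Among all genes 0.923% were lower and 0.827% higher there. C1qa, a chain of complement C1q, stood at 2.09 CPM in bone marrow, 292 in blood and 1694 at the HO site, and Mrc1, the mannose receptor, at 2.83, 10.3 and 1068. Apoe, the apolipoprotein of lipid-handling macrophages, stood at 325, 1462 and 8242.

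The genes of largest ratio lay partly in these lists and partly outside them. Besides Ccne2, the 10 largest ratios over blood were those of Mpo, Ttk, Ms4a3, Depdc1a, Ctsg, Gtse1, Rmi2, Elane and Brca1, of which Brca1 encodes a DNA repair protein (21.6 CPM against 0.332). The pooled level of Mpo equalled that of the 60 azurophil-low B-lineage cells, a level that rested on few of those cells, as given above. The ratio of Elane turned with all 68 B-lineage cells as background (to at most log2 -3.60 against blood and -2.51 against the HO site). The place of either gene in this order and in that against the HO site is thus not read. The 10 largest ratios in favour of blood were those of Fabp4, Id3, Tgm2, Bcl2a1d, Cd36, Tmem37, Il1b, Slc12a2, Hes1 and H2-Eb1, of which Id3, Tgm2, Bcl2a1d, Tmem37, Slc12a2 and Hes1 were called in no list. Against the HO site, Dnah8, Klrb1f, Nkg7, A430078G23Rik and Myb joined Elane, Mpo and 3 histone genes, Hist1h2bn, Hist1h2bb and Hist1h2ab, among the 10 largest, with Klrb1f, a lectin-like receptor, at 42.1 in bone marrow, 4.15 in blood and 0.170 at the HO site. Nkg7, at 13.5 CPM, also lay under the 19.9 of the 60 B-lineage cells. Histone transcripts of such near-identical copies may share reads. Among the 10 genes most in favour of the HO site were Cxcl2, Pf4, Dab2, Ccl8, Gas6, Cxcl16, Ccl7, Cxcl1 and Sdc4.

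Gm42418, a locus that overlaps ribosomal RNA sequence and was added after its values had been seen, held 21083 CPM in bone marrow monocytes, 61797 in the blood cells and 70898 at the HO site. Its level moved with the site, and its part in the other results was not tested.

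The bone marrow monocytes were not uniform. The first principal component of the 282 thinned cells held 9.89% of the variance and had a Spearman rho of 0.82 with a cell's cell cycle UMIs and of 0.82 with its UMI total before thinning (282 cells of 1 library). At one end lay Stmn1, Hist1h1b, Hist1h2ap, Top2a, 2810417H13Rik, Prtn3, Mki67 and Hist1h2ae, and at the other Wfdc17, Gm42418, Apoe, Ctss, Ifi27l2a, Ccl6, S100a4 and Ifitm6. The second component held 3.45% and set S100a8, Chil3, Mki67, Wfdc21, S100a9, Fn1, Lyz2 and Gda against Prtn3, Npm1, Eef1g, Ctsg, Ifitm1, Rpl22l1, Ramp1 and Cd74. Its rho with the classical monocyte list was 0.55 and with the list of dendritic-like monocytes -0.45.

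**Figure D3:**
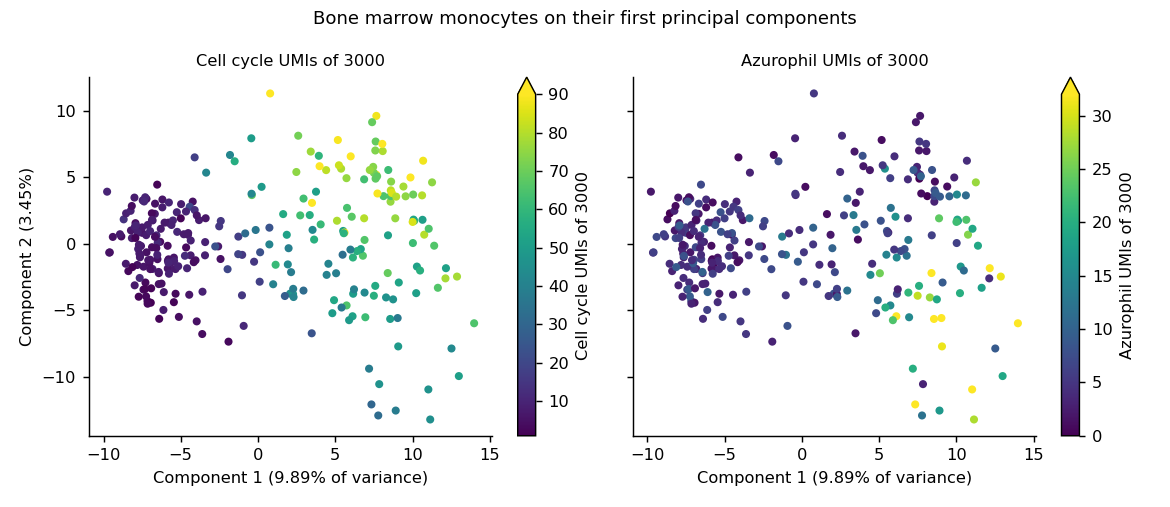
Each of the 282 bone marrow monocytes by its scores on principal components 1 (9.89% of variance) and 2 (3.45%), coloured by cell cycle UMIs of 3000 in one panel and by azurophil UMIs of 3000 in the other. Cell cycle UMIs are high toward the right along component 1, and cells rich in azurophil UMIs lie at the lower right.

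The 141 cells with 20 or more cell cycle UMIs were set against the 141 below. Of 8187 genes compared, 1155 were higher in the first (14.1%) and 404 lower (4.93%), and the cell cycle genes among them were fixed by the split. Of the azurophil genes 7 of 10 were higher and none lower (median log2 ratio 2.98), and 4 of the 7, Ctsg, Mpo, Elane and Prtn3, are genes on which the cells were chosen. Elane stood at 484 CPM against 18.9 and Prtn3 at 1799 against 258, as a description. The others were Ms4a3, at 56.4 against 4.55, Cst7, at 33.1 against 3.79, and Nkg7, at 18.8 against 2.65. Nkg7 in either range lay under its CPM in the 60 B-lineage cells given above, but those cells were shallower, so that this does not settle its background. Mpo over all 282 cells equalled its own pooled level there, which rested on few of the 60 cells. Neither gene is read. Irf8 stood at 335 against 172, and Cxcr4 at 135 against 37.1. Of 6 progenitor genes 4 were higher, Cd34, Sox4, Myc and Cdk6, and Spink2 was lower. The list had no UMI in 82.3% of the cells above 20 and in 81.6% of those below, at 3000 UMIs per cell, and its rho with cell cycle UMIs over the 282 cells was -0.06. Myb, outside that list, had no UMI in the cells below 20 and stood at 23.7 in those above.

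Of 15 monocyte genes none was higher and 5 were lower in the cells at or above 20, and of 10 classical monocyte genes none was higher and 2 were lower. Ctss stood at 537 CPM in the cells at or above 20 and 1547 in those below, and of the rule's genes Csf1r stood at 121 and 264 and Ccr2 at 922 and 1578, the last a difference under 2-fold. Of 23 interferon-stimulated genes 19 were lower and none higher (median log2 ratio -1.65), with Isg15 at 10.0 against 89.0. Of 6 MHC class II genes 4 were lower, Cd74 standing at 14.4 against 388, and Apoe stood at 35.0 against 928. Ly6c2 was an exception, at 2435 against 1603, and none of 15 glycolysis genes passed 2-fold. These cells also differed in depth, as given above, and in Gm42418, at 12481 against 38984, and the part of either in the differences was not tested.

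Just outside the rule lay 37 bone marrow cells that met both limits on monocyte genes but not the one on azurophil genes. Of these 37, 2 also failed the limit on S100a8 and S100a9. All 37 had 20 or more cell cycle UMIs. From the monocytes below 20, through those above, to these 37 cells and to 73 azurophil-rich cells of the same library, Elane ran from 18.9 through 484 and 3660 to 9683 CPM, in an order that the choice of cells fixed. Among genes not used to choose them, Fn1, the gene of fibronectin, ran from 1131 through 672 and 23.4 to 2.37, Lyz2 from 23895 through 13004 and 1734 to 284, and Myb from 0 through 23.7 and 111 to 335. Irf8 ran from 172 through 335 and 450 to 63.9, and Ly6c2 from 1603 through 2435 and 1950.5 to 836. Fn1 and Lyz2 thus had their highest level in the monocytes below 20, Ly6c2 in those above, and Irf8 in the 37 cells outside the limit.

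The cells were also compared at 3000 UMIs per cell in other programs. The dendritic-like monocyte list, led by MHC class II genes, had a median of 0.5 UMIs per cell and a highest of 78, and the classical monocyte list a median of 27. Their Spearman rho over 282 cells was -0.33, and that of the classical with the neutrophil-like list was 0.52. The classical and neutrophil-like lists share Chil3, which raises their rho. The first also holds Ccr2 and F13a1 and the second S100a8 and S100a9, all genes of the rule, so that these values are a description only. The rho of cell cycle UMIs with interferon-stimulated UMIs was -0.48 and with azurophil UMIs 0.27. The azurophil list holds the protease genes whose sum the rule limited, so that its rho is given as a value only. The points share 1 library, and all counts of a cell share its total.

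With the cells of many cell cycle UMIs left out, fewer genes differed from blood. The 141 bone marrow monocytes below 20 had 50 of 8005 genes higher (0.625%) and 236 lower (2.95%) than the 315 blood cells, in place of 979 and 492. Of 28 interferon-stimulated genes none was then higher or lower, and Isg15 stood at 89.0 CPM in these cells and 87.7 in blood (log2 0.02). Nonclassical genes were still lower in 8 of 13 cases. Part of the drop was set by the choice of cells, since 39 S phase and 52 G2 and mitosis genes were among the 979 and these cells were taken for few such UMIs. The group also held 2638976 of the 8131309 UMIs, so that intervals were wider and fewer genes lay above the minimum of 50 UMIs.

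A narrower comparison also left out the blood cells with 3 or more UMIs of the nonclassical genes Ace, Treml4, Fabp4, Cd36 and Spn, which kept 206 blood cells. There, 60 of 7256 genes were higher in the bone marrow monocytes below 20 (0.827%) and 67 lower (0.923%). Ccr2 stood at 1578 CPM in these bone marrow cells and 1243 in the 206 blood cells, Ms4a6c at 1488 and 1410.4, Ly6c2 at 1603 and 1165, and Lyz2 at 23895 and 25346, all under 2-fold. None of 26 interferon-stimulated, 14 homing and 16 glycolysis genes was higher or lower.

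Listed genes still differed in both directions. Of the cell cycle genes, on which the bone marrow cells were chosen, 6 of 22 of G2 and mitosis and 2 of 16 of S phase were higher, with Mki67 at 29.2 CPM against 7.36 and Ccnb2 at 45.9 against 12.9. Against all 315 blood cells 3 of 26 of G2 and mitosis were higher and 3 lower, and of 22 S phase genes none was higher or lower, so that no direction is read. The neutrophil granule genes Camp, at 46.6 CPM, and Ngp, at 40.9, lay under the 66.9 and 50.6 of the 60 B-lineage cells, with 2 UMIs each in the blood cells. Ace and Spn were also higher, but the limit on the blood cells used both genes.

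Lower in bone marrow were 5 of 12 immediate early genes, with Fos at 71.6 CPM against 352 (log2 -2.30, -2.52 to -2.07) and Dusp1 at 12.9 against 119 (log2 -3.21), and 4 of 10 inflammatory genes, with Il1b at 3.79 against 26.1. Cd14 stood at 24.3 against 103, Nr4a1 at 33.7 against 69.2, Lmna, the gene of nuclear lamins A and C, at 7.20 against 36.0, and 3 of 6 MHC class II genes were lower, among them H2-Ab1 at 73.9 against 172. Saa3, an acute-phase protein gene, stood at 170.1 against 462. Elane, at 18.9 against 6.09, was the azurophil gene that was still higher, near the 25.3 of the 60 B-lineage cells.

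**Figure D4:**
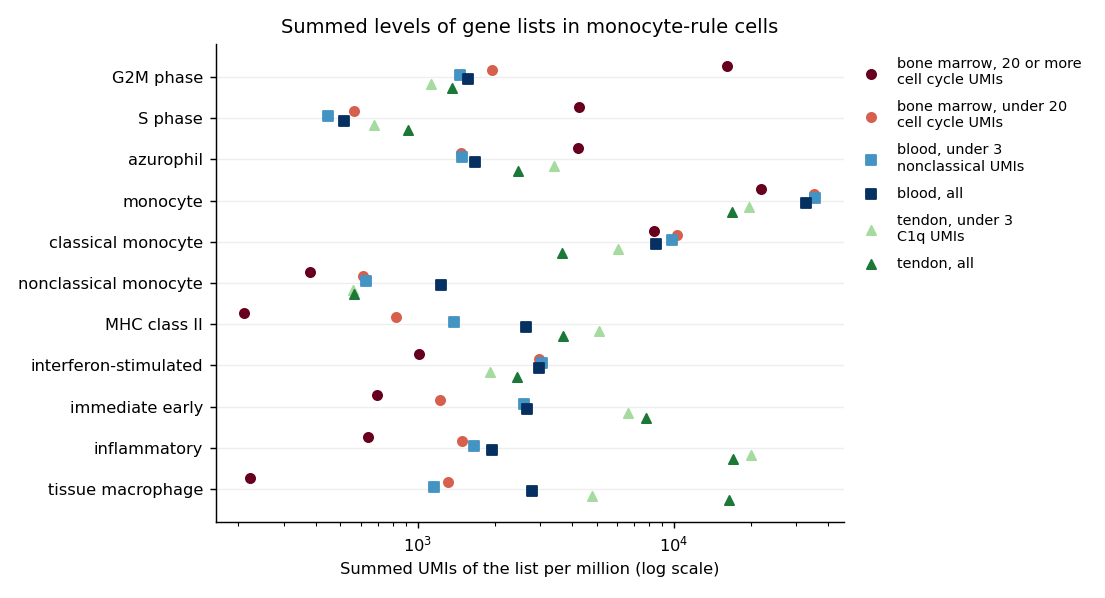
Summed level of 11 gene lists in UMIs per 1000000 (CPM, log axis) in bone marrow monocytes with 20 or more and with under 20 cell cycle UMIs, in blood cells with under 3 nonclassical UMIs and in all blood cells of the rule, and in HO site cells with under 3 C1q UMIs and in all HO site cells of the rule. Interferon-stimulated genes sum to 2980 in bone marrow cells below 20 and 2986 in all blood cells, while inflammatory genes sum to 1491 and 16940 in bone marrow cells below 20 and all HO site cells.

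More genes differed from the HO site. Against the 674 HO site cells with under 3 UMIs of the complement genes C1qa, C1qb and C1qc, the bone marrow monocytes below 20 had 1131 of 8610 genes higher (13.1%) and 1304 lower (15.1%). Inflammatory genes were lower in 25 of 26 cases (median log2 ratio -5.87), with Il1b at 3.79 CPM against 1822 and Thbs1 at 17.8 against 2134. Classical monocyte genes were higher in 6 of 10 cases, 2 of them the rule's genes Ccr2 and F13a1, with Ly6c2 at 1603 against 256. Interferon-stimulated genes turned in this comparison, 12 of 29 being higher and 3 lower in bone marrow, with Oasl2 at 53.4 against 26.1 and Cxcl10 at 7.96 against 44.8.

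**Figure D5:**
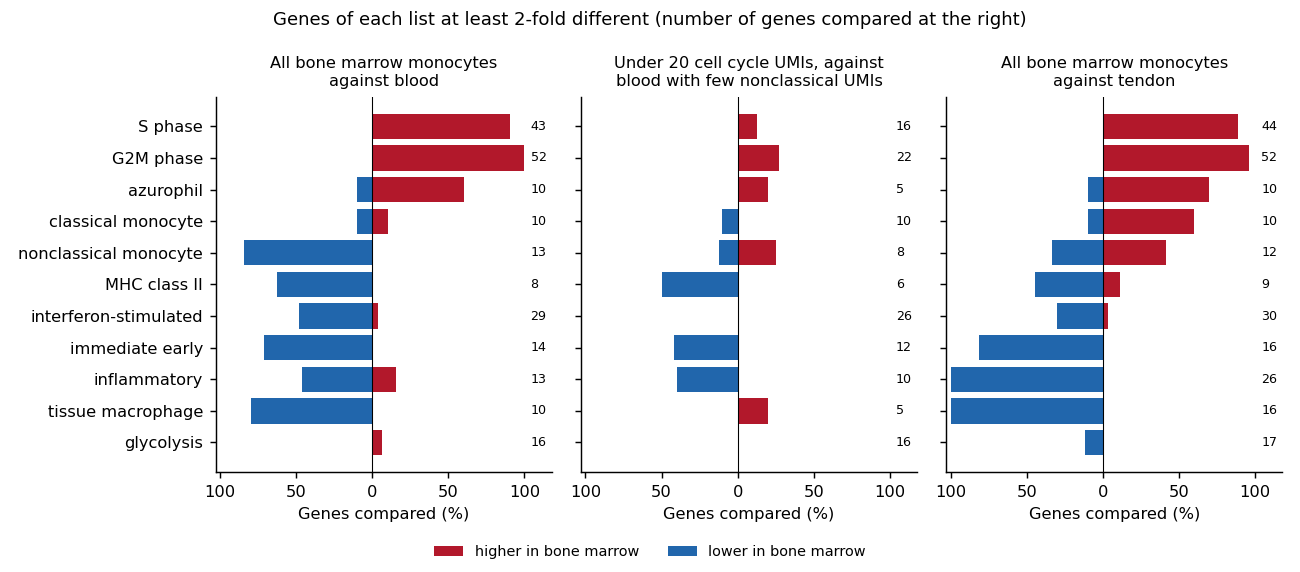
Percent of the compared genes of 11 lists that were at least 2-fold higher (to the right) or lower (to the left) in bone marrow monocytes, with the number compared at the right, for all cells against blood, for cells with under 20 cell cycle UMIs against blood cells with under 3 nonclassical UMIs, and for all cells against the HO site (tendon). The cell cycle bars are long against both sites and short in the middle panel, where the interferon-stimulated and glycolysis lists have none, and all 26 inflammatory and 16 tissue macrophage genes are lower against the HO site.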

How the data were processed

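For 1 library each of bone marrow, blood and the injured tendon, the deposited values were raw UMI counts by gene and barcode. The file headers name Cell Ranger 5.0.1, and the submitters' processing notes the mm10 build. The bone marrow library held 1855 barcodes with 49580625 UMIs, blood 2241 with 22542581 and the HO site 5629 with 90621052. Cells with at least 200 genes and at most 20% mitochondrial UMIs were kept, and doublets were not removed in the reported values. The cells were taken by the rule in the text, not by clustering. The members and gene lists were chosen with earlier results of these data known.

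Counts were summed over the cells of a group. Levels carry exact 95% Poisson intervals, shares exact Clopper-Pearson intervals, and log2 ratios the exact binomial split of the UMIs, for genes with at least 50 UMIs over both groups, with a floor of 3 counts over a group at 0. Every interval and floor covers counting error only. For counts per cell, each cell was thinned to 3000 UMIs with a fixed seed, and cells too shallow were left out. These were 11 HO site cells of the rule, 4 bone marrow B-lineage cells (all among the 60 low in azurophil UMIs) and 24 blood B-lineage cells. In bone marrow 9 cells with 5% or more S100a8 and S100a9 UMIs and 1 azurophil-rich cell were also left out. Components were computed on the 1000 most variable genes. Genes were named if they belonged to the rule or markers, were among the 2 to 4 members of a list with the most UMIs or past the fold, were among the 10 largest ratios in a direction (with a minimum of 100 UMIs and detection in 10% or more of the higher group's cells), or among the 8 largest loadings at an end of a component. Others are said to be chosen after their values were seen. Of 395 list entries 8 were not matched and are not analysed here, and some genes that the naming rule covers are not reported here. In all 21 other settings were tried (quality filter, doublet removal by Scrublet in scanpy 1.11.5, limits of the rule, weighting, scaling, free RNA, minimum UMIs, thinning), and 6 were added after seeing the data. The procedures were tested on simulated data. Python 3.11.15 with numpy 2.4.6, scipy 1.17.1 and pandas 2.3.3 was used.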

Additional observations from a re-analysis of the deposited data

How the results depend on the processing

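With 1 library per site nothing here tests a difference between sites, and a level in a group cannot separate site, preparation and animal. No paired analysis was possible because each site has 1 library. Applying the rule at 5000 UMIs per cell gave 4.48% of bone marrow cells with at least that depth, 549 genes higher and 230 lower than in blood and 1465 lower than at the HO site. The log2 ratios to blood of Irf8 (0.66, from 1.05), Csf1r (-0.68, from -1.15) and Isg15 (-0.44, from -1.30) were then under 2-fold. With at least 4 Csf1r UMIs the share was 9.40%, and without the azurophil limit 17.2%. With at least 200 UMIs per gene, 582 genes were higher and 247 lower than in blood and 1378 lower than at the HO site, fewer genes being compared. The share of bone marrow monocytes with 3 or more cell cycle UMIs was 71.3% thinned to 1000 UMIs and 100% thinned to 5000, and was 99.6% with a limit of 2, 89.0% with 5 and 50% with 20.

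The alternatives added after seeing the data moved the counts most. With bone marrow monocytes under 20 cell cycle UMIs, 50 genes were higher and 236 lower than in blood and 1187 higher than at the HO site, with blood cells under 3 nonclassical UMIs 293 were lower, and with HO site cells under 3 C1q UMIs 1304 were lower. With both restrictions 60 were higher and 67 lower than in blood, and 1131 higher and 1304 lower than at the HO site. These signs turned. With bone marrow monocytes under 20, the log2 ratio to blood was 0.022 for Isg15, -0.31 for Pcna, -0.58 for Cxcr4 (from 0.89) and -2.31 for Top2a, and that to the HO site -0.95 for Mki67, -1.41 for Pcna and -3.40 for Top2a. With both restrictions the ratio to blood was -0.30 for Pcna, -0.30 for Cxcr4, 0.26 for Cx3cr1 (from -0.81) and 0.36 for Fn1 (from -0.61), and that to the HO site -0.99 for Pcna and -2.25 for Top2a. With blood cells under 3 nonclassical UMIs the ratio to blood was -0.13 for Ccr2 and -0.025 for Ms4a6c, and with HO site cells under 3 C1q UMIs that of Fn1 to the HO site was -0.099. The ratio of Ccr2 to blood was -0.09 without the azurophil limit, and that of Fn1 0.015 with the rule at 5000 UMIs. With free RNA subtracted at the level of all 68 B-lineage cells, some of which hold many azurophil UMIs, which brought both genes to 0, the ratios to blood were at most -3.60 for Elane and -1.17 for Mpo and those to the HO site at most -2.51 and -1.51, at the floor of 3 counts. At the level of the 60 azurophil-low B-lineage cells Mpo again gave at most -1.17 and -1.51. Of 787 ratios of 22 genes over 19 settings, 763 kept their sign and 24 did not, 11 of the latter from a ratio under 2-fold. Quality filter, doublet removal and shared barcodes turned no sign among them.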

Other observations

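Genes of the phagocyte oxidase and of phagocytic receptors were compared as a further group. Of 20 genes none was higher and 7 were lower in bone marrow monocytes than in blood (median log2 ratio -0.69), against 10.7% higher and 5.37% lower among all genes, and the lower ones were receptors: Cd36, Cd14, Fcgr4, Mrc1, Fcgr2b, Clec4e and Msr1. With bone marrow monocytes under 20 cell cycle UMIs 4 of 20 were lower (median -0.08), and with blood cells under 3 nonclassical UMIs as well only Cd14 of 18 (median -0.07). Among all genes 2.95% and 0.923% were lower in these comparisons. The oxidase subunits differed by less than 2-fold from blood, with Cybb, the catalytic subunit, at 918 CPM in bone marrow (897 to 939), 1173 in blood and 326 at the HO site, and Ncf1, a cytosolic subunit, at 154, 142 and 105. Against the HO site Cybb, Rac2 and Ncf4 were higher and 9 receptor genes lower. Tlr2, a receptor for bacterial lipoproteins, stood at 33.6 in bone marrow, 35.2 in blood and 180.0 at the HO site.

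Genes reported for neutrophil-like monocytes, a branch of the classical monocytes, were higher than at the HO site in 11 of 15 cases. Of these, S100a8 and S100a9 were used by the rule, and the levels of Camp, Ngp and Ltf in bone marrow lay at or near those of B-lineage cells, so that the count is given as a description. Against blood 4 of 14 were higher, Camp, Ngp, Ltf and Fcnb, and 1 was lower (median log2 ratio 0.02). Fcnb, higher than at both other sites, had no UMI in the 60 azurophil-low B-lineage cells. Mmp8, the gene of neutrophil collagenase, stood at 182 CPM in bone marrow monocytes, 213 in blood and 32.6 at the HO site, against 3.62 in the 60 azurophil-low B-lineage cells of the bone marrow. It stood at 291 in the monocytes under 20 cell cycle UMIs, which were shallower, and at 129 in those above. Markers of conventional dendritic cells summed to 85.6 CPM in bone marrow monocytes, 91.7 in blood and 43.0 at the HO site, with Cd24a the most abundant at each. Cd209a, at 1.84, 21.4 and 7.58, was lower than at both other sites, while Flt3 and Cd24a were higher than at the HO site.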
